A study of Mus musculus with 4 samples.

Results

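Unplaced and random contigs are the pieces of mouse genome assembly that could not be put in order on a chromosome. In mm9, the build of the deposited positions, the pieces assigned to a chromosome without a place on it are joined as chr1_random, chr8_random and so on, and the pieces assigned to none are joined as chrUn_random. The deposited tables list 63981 CG sites on 11 such contigs, leaving out those of the sex chromosomes. Members were the CG sites with at least 5 reads in every one of the 4 libraries after both strands were added together. These were 2137 of the 2640810 CG sites that met this minimum on all sequences, and they lay on 9 of the 11 contigs. chrUn_random held 1318 of them, chr8_random 345, chr1_random 269, chr9_random 115, chr4_random 69 and chr13_random 17. chr3_random held 2, chr5_random and chr17_random held 1 each, and chr7_random and chr16_random held none. At the threshold, the 187 sites whose lowest library had exactly 5 reads had a mean level of 40.8%, and the 271 sites just outside, with 4 reads in the lowest library, had 37.5%.

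Sequence is left out of the chromosomes of an assembly mostly where it is repeated, since reads from near-identical copies cannot be put in order. Segmental duplications, satellite arrays and tandem gene families are typical of such pieces. A read that fits several copies equally well cannot be given to one of them, so both the depth and the methylation level of repeated sequence depend on how a mapper treats such reads. In mammalian sperm, CG-dense islands are mostly unmethylated and the CG-poor remainder, repeats included, is mostly methylated.

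The assay was TGBS (targeted bisulfite sequencing), in which capture probes enrich chosen genomic regions and the level of a CG site is its share of methylated reads. In what follows, the values of swim-up replicates 1 and 2 precede those of HRCS replicates 1 and 2. Fractions of sperm from adult wild-type C57BL/6 mice were compared, with 2 libraries each. Swim-up sperm were those in the upper part of the medium in which the tissue had been incubated. HRCS (histone replacement-completed sperm) were sperm heads pelleted through Percoll from the total sperm of caudal epididymis and vas deferens, whose tails had been removed by mild sonication. The fractions thus differ in preparation as well as in histone replacement, and swim-up sperm still hold some sperm with incomplete replacement. Nothing in the labels says whether the libraries of a fraction came from separate animals, so p-values measure the spread between these libraries, which may be technical. Each library held between 71379227 and 89403347 calls, a call being the reading of 1 CG site by 1 read, and the contigs took 117038 and 111357 of them for swim-up and 139085 and 138115 for HRCS. The median member had 21 and 20 reads for swim-up and 26 and 25 for HRCS, against 21, 19, 25 and 22 at the 2601336 autosomal sites of the same minimum.

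The identity of contig sequence was read from the spacing of its CG sites, since the genome available was GRCm38 and not mm9. A stretch of 9 consecutive CG sites was taken as found in GRCm38 where all 8 distances matched exactly in either orientation. Gene starts were located the same way: the spacing of all CG sites of a RefSeq promoter had to recur on a contig. The 3 stretches below lie before annotated gene starts and are shown because they cover the range of what the libraries read there. The first was read and nearly unmethylated, the second was read too thinly for any member, and the third was not read. Capitals mark the CG sites, and each line gives the bases directly before the gene's start that lie in no annotated exon.
Fam205a3, GRCm38.p6 chr4:42294314-42294524, plus strand: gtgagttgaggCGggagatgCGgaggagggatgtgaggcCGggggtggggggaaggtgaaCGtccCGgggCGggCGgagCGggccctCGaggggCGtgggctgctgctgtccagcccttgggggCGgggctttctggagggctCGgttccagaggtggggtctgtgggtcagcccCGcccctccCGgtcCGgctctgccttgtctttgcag
Gm34102, GRCm38.p6 chr1:183345290-183345539, plus strand: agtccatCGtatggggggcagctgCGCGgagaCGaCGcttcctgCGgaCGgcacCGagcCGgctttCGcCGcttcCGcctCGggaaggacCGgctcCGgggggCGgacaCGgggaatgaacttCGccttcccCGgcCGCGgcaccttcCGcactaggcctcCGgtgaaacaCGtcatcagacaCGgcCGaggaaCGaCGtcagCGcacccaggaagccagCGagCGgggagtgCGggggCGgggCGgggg
Hmgcs1, GRCm38.p6 chr13:119690101-119690350, plus strand: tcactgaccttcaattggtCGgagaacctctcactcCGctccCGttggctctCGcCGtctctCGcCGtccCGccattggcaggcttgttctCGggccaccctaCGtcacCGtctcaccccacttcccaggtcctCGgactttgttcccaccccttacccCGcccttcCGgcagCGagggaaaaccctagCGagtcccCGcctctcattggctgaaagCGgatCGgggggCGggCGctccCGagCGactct
The Fam205a3 start was matched on chrUn_random, and 6 of the 15 CG sites shown were members there. The spacing of all 21 CG sites matched for this start occurs elsewhere in the deposited list too, and whether its reads came from other copies was not tested. The stretch shown is bounded upstream by an annotated exon, and the run of members at 701603 to 701716 matched 4 places of GRCm38 in full, the one taken as best lying in coding sequence of Gm20878. The bases shown thus lie between the upstream exon and the annotated start. Whether they are promoter or intron, and whether these reads come from them, was not tested. The 6 members had a mean level of 1.29% in swim-up replicate 1 and 0% in each of the other 3 libraries. The start of Aida on chr1_random was read too, with 17 members at 1.24% or less in each library. It is not shown, since no bases free of annotated exons lay directly before it. The lncRNA start Gm34102 was also matched on chr1_random. Its 34 CG sites shown received 100 and 102 calls for swim-up and 228 and 83 for HRCS, and none was a member. Hmgcs1 encodes the cytosolic enzyme that makes HMG-CoA for cholesterol synthesis. Its start was matched at 2 places of chr13_random, and the 23 CG sites shown had 0 calls in every library at both. The spacing of all its 26 CG sites likewise recurred elsewhere, so a missing call there does not show that the sequence was absent from the libraries.

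The contigs differed from each other far more than the libraries did. The mean level of the 345 members on chr8_random was 64.6% and 64.0% for swim-up and 64.8% and 64.2% for HRCS. On chr4_random it was 53.0% and 52.8% for swim-up and 52.0% and 51.6% for HRCS. On chr1_random it was 50.3% and 49.4% for swim-up and 49.0% and 50.4% for HRCS. These contigs lay near the middle of the scale, and chr9_random lay well below them at 15.7% and 13.7% for swim-up and 14.7% and 14.02% for HRCS. chrUn_random, which holds most members, was at 26.4% and 25.7% for swim-up and 25.8% and 26.1% for HRCS. chr13_random had the highest level of the contigs with more than 2 members, 82.9% and 72.9% for swim-up and 80.9% and 81.2% for HRCS, from 17 sites. From high to low these 6 contigs kept the same order in each library, the closest neighbours being chr4_random and chr1_random, whose libraries did not overlap.

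**Figure D1:**
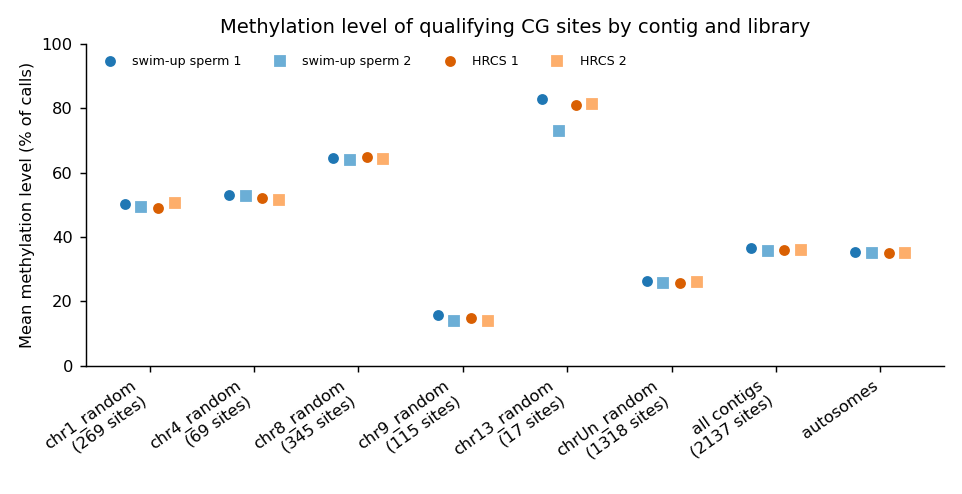
Mean methylation level of the member CG sites (y axis, percent of reads methylated) on each contig with at least 17 members, on all contigs and on the autosomes, with 1 point per library. The 4 libraries of a contig lie close together, from about 14 to 16% on chr9_random to about 64 to 65% on chr8_random, and the wider spread on chr13_random comes from 17 sites.

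Over all members, the mean level was 36.4% and 35.5% for swim-up and 35.8% and 36.0% for HRCS. The autosomal sites had 35.3%, 34.97%, 35.2% and 35.1% in the same order. The contigs were higher in 4 of 4 libraries, by 0.82 ± 0.26 percentage points (SD, n = 4; two-sided exact permutation test over libraries, at the smallest p that 4 paired values allow). This mean joins opposite differences: the members of chrUn_random lay 9.12 points below the autosomes (−9.12 ± 0.26, SD, n = 4) and those of the other contigs 16.8 ± 0.30 points above, each in 4 of 4 libraries. Neither was uniform. Runs of 254 and 108 of the 1318 members of chrUn_random were near 2% and pull its mean down. The difference without these runs was not computed, and the SD covers libraries, not loci. chr9_random lay below the autosomes in each library. The difference over all contigs also depended on depth, at 3.92 points with a minimum of 10 reads and 8.74 points with 20. The distribution of levels also had another shape. Sites at a middle level, from 25 to 75%, made up 27.3% and 28.9% of the members for swim-up and 27.6% and 28.5% for HRCS. On the autosomes they made up 6.88%, 7.02%, 7.02% and 7.08%. The difference of 21.1 ± 0.68 points (SD, n = 4) had the same sign in 4 of 4 libraries (two-sided exact permutation test, again at the smallest possible p). Both ends of the scale were correspondingly less filled on the contigs. Sites at 10% or less were 39.5% of the members and 57.01% of the autosomal sites, each as the mean over the 4 libraries, and sites at 90% or more were 12.5% and 26.0%.

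**Figure D2:**
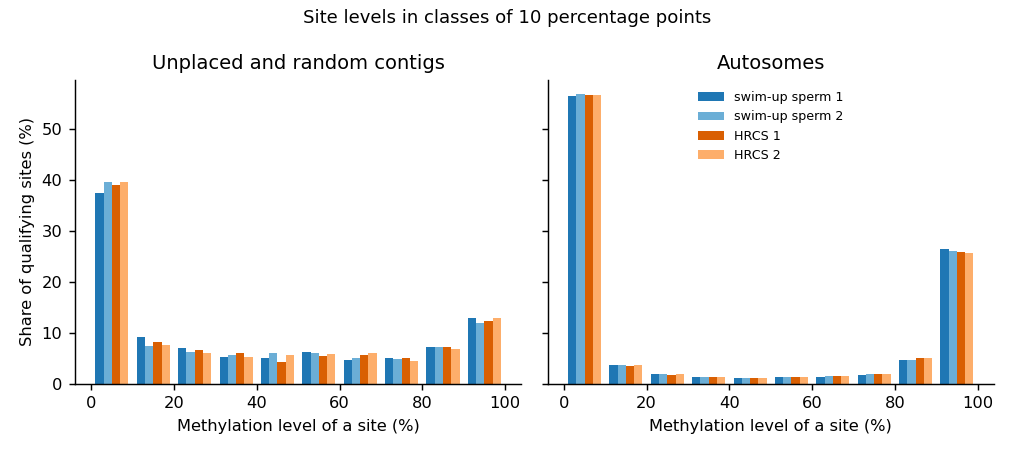
Share of qualifying CG sites (y axis, percent) in each class of 10 percentage points of methylation level (x axis), for the contigs on the left and the autosomes on the right, with 1 bar per library. Every class between 10 and 90% holds a larger share on the contigs than on the autosomes in each library, and both end classes hold a smaller one.

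Few reads widen the counting error of a level, and the share was therefore also taken at higher depth. With at least 20 reads in every library, 926 contig sites remained, of which 25.8% lay at a middle level, against 5.81% of the autosomal sites. At the minimum of 5 reads, 328 members (15.3%) lay from 25 to 75% in all 4 libraries at once, against 2.78% of the autosomal sites. Of the 181 middle-level members read on both strands at least 5 times in every library, 2 (1.10%) had strands more than 50 points apart, against 155 of 7495 (2.07%) on the autosomes. The remaining middle-level members were not read deeply enough on both strands for this comparison.

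Autosomal and contig sites differed in their CG surroundings, and the level was therefore taken by CG density, counted as the listed CG sites in the 200-bp window of a site. Where 1 or 2 CG sites were listed, members had 54.3% and 53.0% for swim-up and 53.4% and 54.6% for HRCS, and autosomal sites had 79.1%, 78.8%, 78.7% and 78.7%. With 3 to 5 CG sites the mean over the libraries was 45.3% on the contigs and 63.8% on the autosomes. With 6 to 9 it was 32.0% and 35.5%. In denser windows the order was the other way round, with 22.2% against 11.0% at 10 to 14 CG sites, 9.15% against 2.96% at 15 to 19, and 2.14% against 1.41% at 20 or more. The contigs thus spanned a narrower range of levels than the autosomes over the same range of CG density. When the autosomal classes were weighted to the density of the members, the autosomal mean became 46.6% and the contigs lay 10.7 points below it in place of 0.82 above. CG-poor sites were more frequent among members, with 33.5% of members and 27.0% of autosomal sites in windows of 3 to 5 CG sites and 23.3% and 11.2% in windows of 1 or 2. The excess of middle levels was present in each class below 20 CG sites. It was largest at 3 to 5 CG sites, 40.6% against 12.1%, and at 20 or more CG sites the shares were 0.147% and 0.436%.

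**Figure D3:**
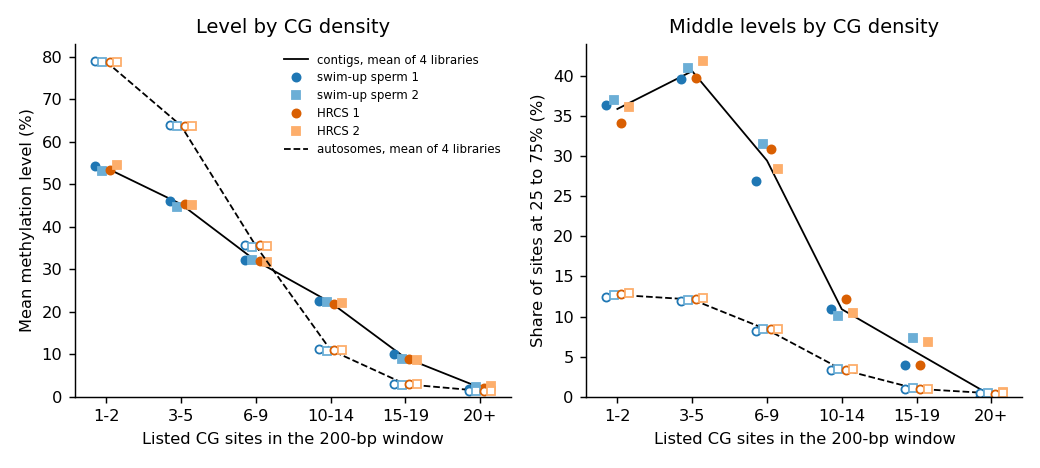
Mean methylation level (left) and share of sites at 25 to 75% (right) by the number of CG sites listed in the 200-bp window of a site (x axis), with filled points for the contigs, open points for the autosomes and lines for the mean of the 4 libraries. The contig level is lower than the autosomal level in CG-poor windows and higher in CG-rich ones, and the middle share is higher on the contigs in every class except 20 or more.

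The contigs also stood apart in how they were read. Of their listed CG sites, 22.3% had a read in any library and 3.34% were members, against 46.7% and 12.8% on the autosomes. Most contig sites were part of a repeated spacing: 64.2% of the listed sites lay in a stretch of 9 CG sites whose spacing occurred elsewhere in the deposited list, against 7.85% on the autosomes. These repeated sites had few calls. In the swim-up libraries they had 0.431 and 0.385 calls per listed site and for HRCS 0.569 and 0.489, while contig sites without a repeat had 4.33, 4.17, 5.05 and 5.15. The autosomal sites gave 1.64, 1.46, 2.10 and 1.80 calls per repeated site and 3.99, 3.62, 4.52 and 3.96 calls per other site. Over the 4 libraries, contig sites without a repeat had 4.67 calls per site and such autosomal sites 4.02, but 7.47% of the former and 13.5% of the latter met the minimum of reads. The calls of the contigs were concentrated on few sites, as given with the deepest members. Of the members, 19.8% lay in a repeated spacing, against 2.38% of the autosomal sites. The excess of middle levels was present in the remainder, with 29.7% of the 1713 members outside repeated spacings and 6.99% of such autosomal sites. An exact match of spacing finds only near-identical copies, and whether reads of other copies fell on these sites was not tested.

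Some contigs were repeated almost throughout and hardly read. All 36 sites of chr16_random lay in a repeated spacing, and no library had a call there. All 442 sites of chr3_random were repeated too, and 2 of them were members. The repeated share was 99.7% on chr17_random, 98.7% on chr5_random, 94.9% on chr7_random and 89.5% on chr13_random, and among these only chr13_random held more than 1 member. The contigs with the most members lay below these, with 71.8% on chr8_random, 62.2% on chrUn_random and 45.1% on chr1_random. chr8_random thus held 345 members in spite of a high repeated share. chr4_random and chr9_random had the lowest repeated shares, 5.46% and 5.34%. In GRCm38, 98.2% of the stretches of chr17_random were found on placed chromosomes, as were 96.3% of those of chr3_random, 94.3% of chr13_random and 91.8% of chr9_random. The 418 stretches of chr3_random that were found lay on chromosome 5, and not on the chromosome of its name. The share was 20.2% on chr4_random, 41.7% on chr5_random, 54.1% on chrUn_random and 60.2% on chr1_random. The starts of Hmgcs1, Zfp131, Nim1k, Disp1 and Fndc1 were matched on contigs in repeated spacings and had at most 21 calls in any library. The Fam205a3 start, repeated as well, had 277 and 278 calls for swim-up and 389 and 314 for HRCS, with 9 members. Zfp131 encodes a zinc finger transcription factor, and Disp1 encodes the transporter-like protein that releases Hedgehog ligands from the cells that make them. The start of Mia3, which encodes a protein that exports collagen from the endoplasmic reticulum, did not recur and had 10 and 13 calls over its 35 CG sites for swim-up and 22 and 33 for HRCS.

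Autosomal calls lay mostly on one strand, and those of the contigs did not. Calls on the minus strand, as the tables mark it, were 49.8% and 49.4% of all member calls for swim-up and 49.6% and 50.1% for HRCS. On the autosomes they were 92.1%, 91.9%, 92.1% and 92.1%. The difference of −42.3 ± 0.22 points (SD, n = 4) was seen in 4 of 4 libraries (same test and p). The even share over all contigs joins unlike ones. Among contigs with at least 17 members, the minus-strand share ran from 17.1% on chr9_random to 67.6% on chr13_random, with 47.4% on chrUn_random. Of the members, 723 (33.8%) had at least 5 reads on each strand in every library, against 2.56% of the autosomal sites. Of all members, 9.50% were read almost only on the plus strand, with at most 5% of calls on the minus strand, against 0.748% on the autosomes. The positions of the capture probes were not used here, and the part of the probes in this difference was not tested. With the minus-strand rows alone, 25.1% of 1394 contig sites were at a middle level.

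Calls were concentrated on few members. The 56 members (2.62%) whose reads in any library exceeded those of nearly all autosomal sites, with limits of 212 and 196 reads for swim-up and 278 and 242 for HRCS, held 33.7% of all member calls, against 0.128% of sites and 4.35% of calls on the autosomes. The deepest was the CG site at position 242601 of chr9_random, with 4778 and 4753 reads for swim-up and 6434 and 6668 for HRCS. It alone held 51.5% of the calls of its contig, 1.71% of them on the minus strand, and its level was 0.879% and 0.757% for swim-up and 1.13% and 1.05% for HRCS. By median reads per run, the next was a run of 3 members on chrUn_random from 5813271 to 5813344, with a median of 2369 and 2524 reads per site for swim-up and 2922 and 4505 for HRCS. In contrast to the first, it was at a middle level, 49.9% and 47.9% for swim-up and 45.4% and 50.8% for HRCS. A pair of single sites on chr8_random followed in that order. The site at 680716 had 1378 to 2257 reads and levels of 60.4% and 54.2% for swim-up and 59.5% and 60.7% for HRCS. The site at 819663 had 953 to 1510 reads and levels of 71.2%, 70.4%, 70.7% and 73.8% in the same order. A run with fewer reads in the median held a deeper site than these, at 3658695 of chrUn_random, with 2062 and 1918 reads for swim-up and 3266 and 3422 for HRCS. Its level was 6.94% and 8.19% for swim-up and 8.67% and 8.62% for HRCS. Low, middle and high levels were all found among the 56 members. PCR copies of a read were not told apart, and the intervals that such counts would give cover counting error only.

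Members no more than 200 bp apart formed 586 runs, of which 268 held a single site. Of the 173 runs with at least 3 sites, 54 had a mean level under 25%, 75 lay from 25 to 75% and 44 were over 75%. Of the 75 runs in the middle, 15 had each site between 25 and 75%, and 4 held both a site under 25% and a site over 75%. Most middle runs were of neither kind and joined intermediate sites with sites on one side of that range. Both HRCS libraries lay above both swim-up libraries in 28 of the 173 runs and below in 25. No runs were formed on the autosomes, so no share over all runs can be given. Of all 200-bp windows, 16.6% lay above and 16.1% below in this way. Nothing is therefore read from single runs without overlap. The 10 runs with the most sites held 640 members (29.9%).

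Of these 10 runs, 4 were nearly unmethylated. A run of 254 members on chrUn_random from 3232661 to 3237203 was at 2.24% and 1.84% for swim-up and at 2.17% and 1.99% for HRCS. Of its sites, 252 were under 25% and the highest was at 68.4%. Its spacing was found best on chromosome 10 of GRCm38, at the pseudogene Gm21321, in 248 of 257 stretches. A run of 108 members on chrUn_random from 4340063 to 4340924 was at 1.82% and 1.18% for swim-up and 1.37% and 1.64% for HRCS, and matched the pseudogene LOC630077 on an unplaced sequence of GRCm38. On chr1_random, 48 members from 270251 to 270992 were at 0.552% and 0.141% for swim-up and 0.800% and 1.25% for HRCS. That stretch was matched in full on chromosome 1 of GRCm38, where it holds the opposed starts of Aida, which encodes an axin-interacting inhibitor of dorsalization, and of Brox, which encodes a protein with a BRO1 domain. A run of 25 members on chr4_random from 41897 to 42254 was at 1.37%, 0.948%, 1.10% and 1.33% in the same order of libraries, and matched the transcribed pseudogene Gm20875 and the zinc finger gene Zfp993 on chromosome 4. All 4 of these runs lay at or below 2.24% in each library. The fractions overlapped in 3 of them, and on chr1_random both HRCS libraries lay above both swim-up libraries, by 0.678 points.

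The other 6 of these runs had higher levels, 2 of them still under 25%. On chr8_random, 73 members from 771656 to 773150 were at 14.3% and 15.9% for swim-up and at 12.9% and 11.4% for HRCS, with sites between 2.54% and 62.4%. Both HRCS libraries lay below both swim-up libraries there, as in 25 of the 173 runs with at least 3 sites, by 2.96 points on average. On chrUn_random, 29 members from 5495616 to 5497161 were at 28.7% and 32.0% for swim-up and 32.4% and 33.1% for HRCS. A run of 27 members from 5733569 to 5734680 was at 29.2% and 30.9% for swim-up and 31.9% and 29.9% for HRCS. On chr9_random, 24 members from 49811 to 50375 were at 17.4% and 14.8% for swim-up and 16.3% and 15.3% for HRCS, and matched LOC108167320, annotated as protein-coding, on chromosome 9. The fractions differed by 2.41 points without overlap in the run at 5495616 and overlapped in the other two. The run of 23 members on chr8_random from 738407 to 739500 was at 78.0% and 67.9% for swim-up and 69.0% and 72.7% for HRCS, a wider spread between the swim-up replicates than between the fractions, and matched the lncRNA Gm36166. The most methylated of the 10 was a run of 29 members on chrUn_random from 3389813 to 3390399, at 91.0% and 90.1% for swim-up and 90.8% and 89.0% for HRCS.

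**Figure D4:**
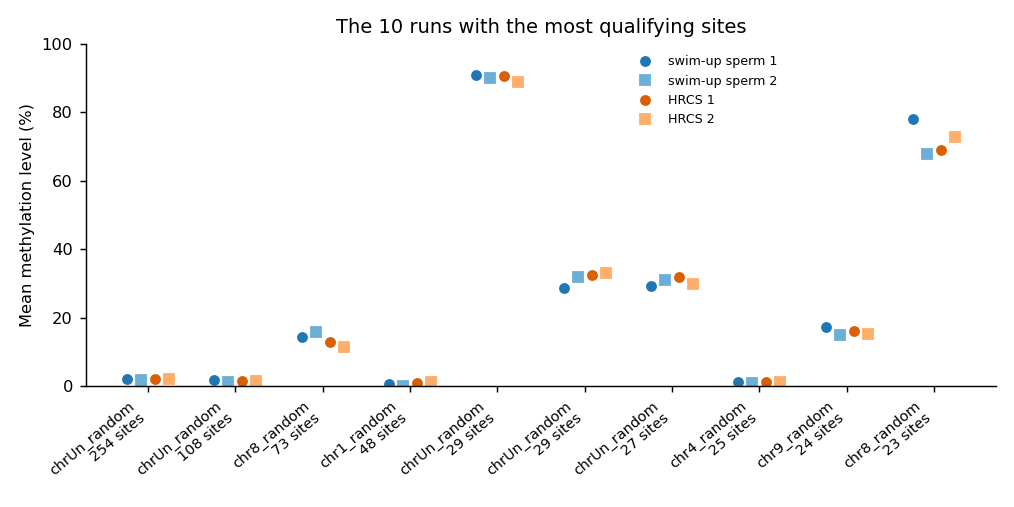
Mean methylation level (y axis, percent) of the 10 runs with the most member sites, ordered by their number of sites (x axis), with 1 point per library. The 4 runs at or below 2.24% and the run near 90% show little spread, and the run of 23 sites on chr8_random shows the widest, from 67.9 to 78.0%.

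The comparison of the fractions asked whether HRCS carry another methylation level than swim-up sperm on these contigs. Averaged over libraries, members had 36.0% ± 0.62 (SD, n = 2) for swim-up and 35.9% ± 0.13 (SD, n = 2) for HRCS. HRCS minus swim-up came to −0.0797 points, less than the SD of either fraction (exact permutation test, two-sided, p = 1, with 0.33 the smallest for 2 libraries against 2). Its sign changed to 0.358 points without swim-up replicate 1 and to 0.0107 without HRCS replicate 1. Without swim-up replicate 2 it was −0.518 points. As methylated calls over all calls, which gives deep sites more weight, it was −1.71 points. The SDs above are of the plain mean of site levels and do not apply to this value. Per contig, no exact permutation p was below 0.33, and adjusted over the 9 contigs with members each was 1. Across the 2137 members, which share libraries and are not independent, Pearson's r was 0.927 for the pair of swim-up replicates, 0.938 for the pair of HRCS replicates and 0.930 to 0.933 between single libraries of different fractions. On the autosomes r was 0.979 to 0.982 for the same pairs. At single sites, 12.5% of members were over 20 points apart in the swim-up pair and 10.2% in the HRCS pair, against 4.28% and 3.63% of autosomal sites. The mean chi-square of the difference, which is 1 under binomial sampling of independent reads, was 1.52 over 524 members in the swim-up pair and 1.51 over 571 in the HRCS pair. On the autosomes it was 1.62 and 1.35, so relative to sampling error the contigs were lower in the first pair and higher in the second. Without the sites of very high coverage, the values were 1.48 and 1.40 on the contigs and 1.59 and 1.34 on the autosomes. The excess in the second pair was then smaller. Between the fractions, with the sites of very high coverage kept in, the mean chi-square was 1.41, 1.56, 1.73 and 1.68 on the contigs. The first lay below both replicate pairs and the others above both. These pairs share libraries, and whether they exceed the replicate pairs was not tested. Only sites were used where the lower read count times the pooled share of the rarer call was at least 5.

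Both HRCS libraries lay above both swim-up libraries at 259 members (12.1%) and below both at 266 (12.4%). Over all contig and autosomal sites, 8.03% lay above and 7.88% below. Libraries tied at 0% cannot separate, and since fewer members than autosomal sites were at low levels, nothing is read from the larger shares of members. In 200-bp windows with at least 3 qualifying sites, the methylated and unmethylated calls were compared by edgeR (quasi-likelihood test, Benjamini-Hochberg adjustment over all 313022 windows). None of the 208 contig windows passed the adjusted p of 0.05, against 0.00288% of all windows. At an unadjusted p under 0.05 there was 1 contig window (0.481%), against 4.62% of all windows. limma also passed 0 contig windows, with 4 (1.92%) at an unadjusted p under 0.05, against 5.68% of all windows. Both shares lay under those of all windows, and how large a difference these tests could find on contig windows was not shown. Both HRCS libraries lay above both swim-up libraries in 35 contig windows (16.8%; 16.6% of all windows) and below in 35 (16.8%; 16.1% of all windows). Pooling the 2 libraries of a fraction ignores how replicates differ. Fisher's exact test on such pools passed 4 contig windows (1.92%), 1 higher and 3 lower in HRCS, against 0.742% of all windows. The higher one was on chr8_random from 723001. The lower ones were on chrUn_random from 3651401 and on chr8_random from 772201 and from 772601. The last 2 lie within the larger chr8_random run named above. Differences of the contig windows ran from −20.1 to 16.7 points with a median of −0.160, and 159 windows lay within 5 points. A difference over 10 points was found in 5.29% of contig windows and in 3.18% of all windows. Single libraries of swim-up were over 10 points apart in 22.1% of contig windows and those of HRCS in 13.0%, though these differences are not between means and spread more widely.

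The windows with the largest differences whose libraries did not overlap, 3 in each direction, were picked by size of difference, and most rested on few calls. Windows with more calls and smaller differences are not listed here. On chr8_random from 19601 to 19800, the level was 56.3% and 66.7% for swim-up and 78.7% and 77.8% for HRCS, a difference of 16.7 points from 40 to 98 calls. On chrUn_random from 5495601 to 5495800 it was 13.3% and 35.2% for swim-up and 44.5% and 36.3% for HRCS, with 20 to 92 calls. The third, on chr8_random from 723001 to 723200, had 51.6% and 54.2% for swim-up and 62.6% and 70.8% for HRCS. It rested on 270 to 368 calls, the most of the 6, and its swim-up replicates were closer to each other than to either HRCS library. In the other direction, the level on chr8_random from 85801 to 86000 was 100% and 83.3% for swim-up and 78.3% and 64.8% for HRCS, from 17 to 28 calls. On chr8_random from 742001 to 742200 it was 57.1% and 48.2% for swim-up and 32.7% and 40.8% for HRCS, from at least 42 calls a library. On chrUn_random from 3057001 to 3057200 it was 67.9% and 53.1% for swim-up and 37.5% and 52.1% for HRCS, from 28 to 77 calls. The lowest unadjusted p of the 6 from edgeR was 0.0785. Runs in the windows at 19601 and 85801 matched unlocalized sequence of chromosome 1 in GRCm38, and not chromosome 8. Without swim-up replicate 1, the difference was 5.25 points in the window at 5495601, −8.33 points in that at 3057001 and −11.8 points in that at 85801. The last was −13.3 points without HRCS replicate 2, that at 3057001 was −8.41 points without HRCS replicate 1, and that at 5495601 was 27.1 points without swim-up replicate 2.

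The contigs' share of each library was also compared. In calls per 1000000 calls of the library (CPM), they took 1490 and 1560 for swim-up and 1556 and 1762 for HRCS. The fractions overlapped, and the ratio of HRCS over swim-up was 1.09 (two-sided exact permutation test on log2 values, p = 0.667). On chr8_random the values were 278 and 256 CPM for swim-up and 315 and 313 for HRCS, a ratio of 1.18 without overlap. chr1_random lay the other way, with 204 and 218 for swim-up and 192 and 193 for HRCS, a ratio of 0.914. chr9_random had 127 and 132 for swim-up and 141 and 151 for HRCS, a ratio of 1.13. Without the sites of very high coverage, these ratios were 1.16, 1.06 and 0.989, so that the last 2 changed direction. chrUn_random, with 819 and 890 CPM for swim-up and 848 and 1041 for HRCS, overlapped. No exact permutation p of a contig was below 0.33, the smallest possible, and over the 10 contigs with calls in every library the lowest adjusted p was 0.556.

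**Figure D5:**
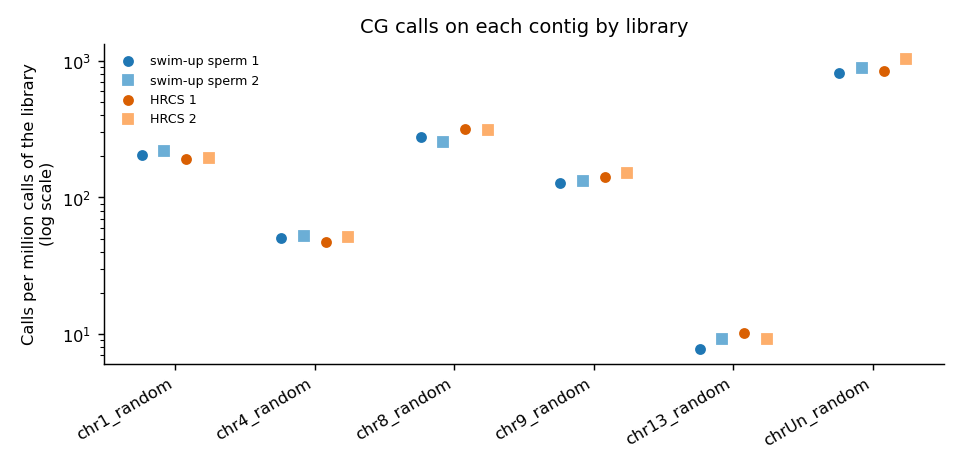
Calls per 1000000 calls of the library (y axis, log scale) on each contig with at least 17 members, with 1 point per library. The HRCS points lie above the swim-up points on chr8_random, chr9_random and chr13_random and below them on chr1_random, and the differences are small beside those between contigs.

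In 1-kb bins with at least 40 calls over the 4 libraries, all calls were compared by edgeR's quasi-likelihood test. Unlike in the windows, library sizes were scaled by TMM (trimmed mean of M-values) and the dispersion could follow a trend. None of the 743 contig bins passed the adjusted p, against 0.00627% of all 350938 bins. At an unadjusted p under 0.05 there were 98 contig bins, 13.2% of them, close to the 14.3% of all bins. HRCS lay above swim-up sperm without overlap in CPM in 126 contig bins (17.0%; 19.2% of all bins) and below in 132 (17.8%; 26.4% of all bins). The count of 0 depended on the settings. DESeq2 passed 7 contig bins (0.716% of all bins), edgeR with the replicate block 20 (1.78%), and edgeR without swim-up replicate 1 passed 9 (1.23%). With at least 200 calls per bin, 11 of 300 contig bins passed (3.67%, against 2.12% of all such bins). With at least 1 call, 25 of 2598 passed (0.962%, against 0.432%), and in 5-kb bins 9 of 409 (2.20%, against 1.12%). Whether contigs differ from all bins in these shares was not tested. The fifth deepest run lay in a bin that passed under several of these settings. On chr1_random from 272692 to 272808, 6 members within Aida by their match in GRCm38 had 54.7 and 72.6 CPM for swim-up and 36.5 and 36.3 for HRCS, a ratio of 0.578. The bin that holds them had an adjusted p of 0.0748 from edgeR's quasi-likelihood test, and 0.00107 from DESeq2. The levels of these 6 members overlapped between the fractions, with 89.5% and 87.8% for swim-up and 89.0% and 87.7% for HRCS.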

How the data were processed

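The authors enriched sperm DNA with a commercial mouse methylation capture kit, prepared libraries by post-bisulfite adapter tagging and mapped the reads to mm9 with Bmap, whose version is not given in the sources used here. No removal of duplicate reads and no coverage minimum are stated. The deposited tables hold, for each CG site and strand, the count of methylated reads and the count of all reads. The first of the 2 counts was taken as methylated, since it never exceeds the second. Which libraries shared a sequencing lane is not given in the sources used here.

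Strands were added, and a site level is its methylated over all reads. Calls were summed in 200-bp windows and 1-kb bins and tested with edgeR 4.0.16, with limma 3.58.1, DESeq2 1.42.0 and Fisher's exact test as alternatives, in R 4.3.3. Exact permutation tests were run with scipy 1.17.1 under Python 3.11.15. Scripts were tested on simulated data. Windows needed at least 3 qualifying sites and bins at least 40 calls. RefSeq genes and sequences come from GRCm38.p6 and were tied to contigs only by CG spacing, without converting positions.

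Runs were named by a rule: the 10 with the most members, the 5 with the highest median reads, and the 3 non-overlapping windows with the largest difference in each direction. The members and lists were chosen with earlier results of these data known. The spacing match, the gene starts shown and the weighting by CG density of the middle share were chosen after seeing the data.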

Additional observations from a re-analysis of the deposited data

How the results depend on the processing

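The excess of middle-level sites on the contigs kept its direction under 12 alternatives, from 18.4 to 31.2 points. The ratio of contig CPM stayed between 1.02 and 1.16 under 9. The level difference between the fractions, −0.0797 points, turned to 0.194 with a minimum of 10 reads, to 0.306 with the minus-strand rows alone, to 0.358 without swim-up replicate 1 and to 0.0107 without HRCS replicate 1, and leaving out 1 library each gave −0.518 to 0.358. As methylated calls over all calls it was −1.71 points, the largest of its alternatives. The contig level lay 10.7 points under the autosomal one (−10.7) when autosomal sites were weighted to the CG density of the members, and 0.3301 to 16.8 points above it under the 11 other alternatives, 16.8 being the value without chrUn_random. For methylation windows, Fisher's exact test on pooled calls passed 4 contig windows and each other alternative 0. For depth bins, at least 200 calls per bin gave 11 contig bins, at least 1 call 25, 5-kb bins 9 and DESeq2 7, in place of 0, and leaving out 1 library gave 0 to 9. Without sites of very high coverage the ratio was 1.06 on chr1_random and 0.989 on chr9_random. The cause of these changes was not tested. With the replicate number as a block, the level difference stayed −0.0797 points and the ratio 1.09, 0 contig windows passed and 20 contig bins passed. Same-numbered libraries were not shown to be paired, since their deviations correlated at 0.0051 over 2137 sites and the labels give only a number. With 2 libraries per fraction, no exact test of HRCS against swim-up could go below 0.33.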
